A study of Homo sapiens with 9 samples.

Results

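The 10 long non-coding RNA genes followed here carry small nucleolar RNAs (snoRNAs) in their introns: GAS5, SNHG1, SNHG3, SNHG5, SNHG6, SNHG7, SNHG8, SNHG12, SNHG15 and SNHG16. They were chosen by symbol, and each symbol was tied to its Ensembl identifier through the authors' deposited table, which gave 10 genes of the 64253 gene identifiers counted. SNHG7 had 2 identifiers, of which the more abundant was used. All 10 passed the filter on low counts that left 16561 genes for testing.

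The study measured RNA in IMR90, a line of human fetal lung fibroblasts, in 9 libraries that fall into 3 groups of 3. The control received vector only on both infections. It is named an empty vector in the sample labels and a GFP vector in the protocol, and is called control here. Cells labelled shRRM2 expressed a hairpin that targets RRM2, which encodes a ribonucleotide reductase subunit needed to make deoxynucleotides, with vector as the second virus, and the shRRM2/shp16 group carried that hairpin plus one against p16, the product of CDKN2A. Both hairpins were delivered from the lentiviral plasmid pLKO.1, 24 hours apart, and cells of all groups were kept at 2% oxygen, used at population doubling 30 and held in 3 ug/mL puromycin for 7 days. The labels name 1 line, no hairpin sequences, and no separate cultures or infections behind the letters a, b and c, so the p-values measure the spread between these libraries, which may be technical.

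Most human snoRNAs are cut from introns after splicing. Box C/D snoRNAs guide 2′-O-methylation of ribosomal RNA and box H/ACA snoRNAs guide its pseudouridylation, so the introns of these genes feed ribosome assembly. The spliced host RNAs encode no conserved protein, and several are known to start with a C followed by pyrimidines (a 5′ terminal oligopyrimidine, or TOP, start, shared with ribosomal protein mRNAs) and to be broken down by nonsense-mediated decay (NMD) when they are translated. Depletion of RRM2 is a known route to senescence in fibroblasts, and loss of p16 is known to weaken that arrest.

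By RefSeq symbols, the spans of GAS5, SNHG1, SNHG5, SNHG6 and SNHG16 hold mainly SNORD genes (the symbol of the box C/D class), with 10, 8, 2, 1 and 3 of them. The spans of SNHG3, SNHG7, SNHG8 and SNHG15 hold SNORA genes (the box H/ACA class), with 2, 2, 1 and 1. SNHG12 holds 1 SNORD and 3 SNORA genes.

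An annotated transcript that begins with C inside a run of at least 5 pyrimidines was found for 8 of the 10 genes, all but SNHG7 and SNHG15. Among all tested genes with annotated transcripts the share was 15.4% of 16275. The search was made on the first bases of the GENCODE 29 transcripts (GRCh38), on the transcript strand, and a gene with more annotated transcripts has more chances to hold such a start: of 129 transcripts of the host genes 16.3% had one, against 2.62% of all transcripts of tested genes. The share of genes was 83.1% for ribosomal proteins and 85.0% for other known TOP mRNAs. For other snoRNA hosts it was lower, at 33.3% of 12 further non-coding hosts and 30.0% of 30 protein-coding hosts. A match describes the annotation and does not show where these cells start transcription. Within the 8 genes, the share of transcripts with such a start ran from 4% for SNHG1 (1 of 25) to 60% for SNHG6 (3 of 5). The start RefSeq gives for SNHG1, shown further below, does not begin with such a run. The 30 bases at the start of 1 such transcript are shown for 7 of the 8 genes, that of SNHG6 not being shown here. They are given because such a start is annotated for 8 of the 10 genes, with the pyrimidine run in capitals:

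GAS5: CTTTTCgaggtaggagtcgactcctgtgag
SNHG1: CTCCTgtctgcaggatttacgcgcacgttg
SNHG3: CCTTTTTggagacagattcgcagtggtcgc
SNHG5: CTTTTacgtcggccttcgcgagcgtctggg
SNHG8: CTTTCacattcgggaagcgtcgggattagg
SNHG12: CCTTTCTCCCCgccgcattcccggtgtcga
SNHG16: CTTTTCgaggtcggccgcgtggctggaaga

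**Figure D1:**
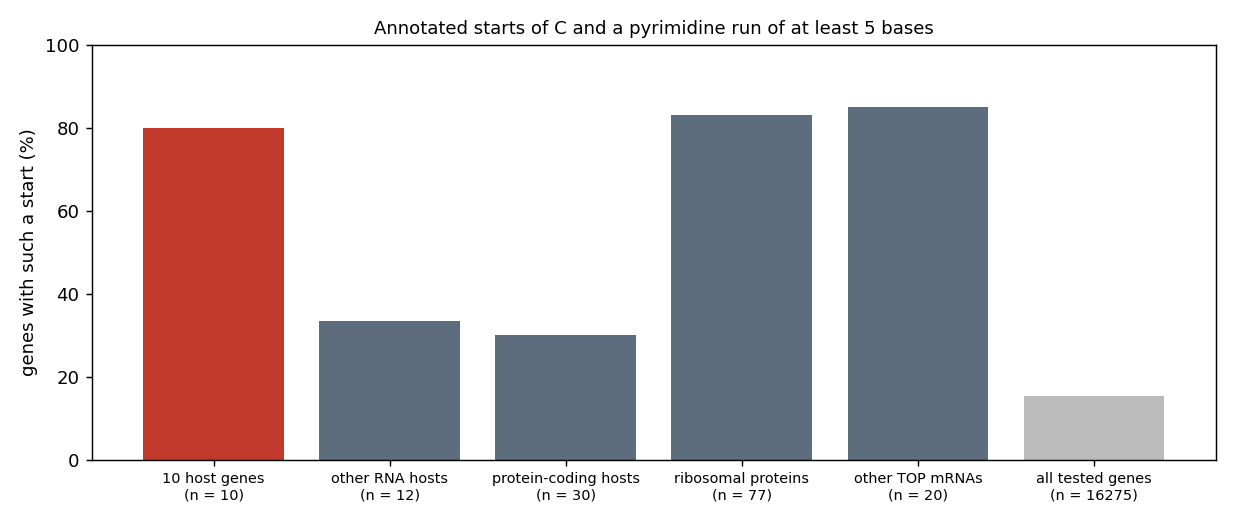
Share of genes, in percent, with an annotated transcript that starts with C in a run of at least 5 pyrimidines (GENCODE 29). Each bar is a gene set with its number of genes. The host genes stand at 80.0%, near the ribosomal proteins at 83.1% and above all tested genes at 15.4%. Other RNA hosts stand at 33.3% and protein-coding hosts at 30.0%.

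The 9 libraries held 15770895 to 24873291 counts in genes. RRM2, the targeted gene, had 485 ± 5.23 CPM (read counts scaled to the library total, with TMM factors) in control, 62.1 ± 1.86 in shRRM2 and 177 ± 3.00 in shRRM2/shp16 (SD, n = 3 each), and CDKN2A had 6.02 ± 0.113, 6.50 ± 0.464 and 4.28 ± 0.321. The summed CPM of 10 fibroblast markers was 37935 to 39109, 40940 to 41893 and 29474 to 30138 in the same order of groups. Markers of epithelial cells summed to at most 25.3 CPM, of endothelial cells to at most 6.52 and of leukocytes to at most 5.97, with KRT5, KRT14, SFTPC, CDH5, CLDN5, PTPRC and CD3E at 3 counts or fewer in every library. The epithelial sum was 24.1 to 25.3 in control, 12.1 to 13.4 in shRRM2 and 3.34 to 5.59 in shRRM2/shp16, and most of it was CLDN4, at 22.9 ± 0.511, 10.7 ± 0.510 and 2.37 ± 0.614 CPM. Of the 3 epithelial markers tested, 1 was higher and 1 lower in shRRM2 than in control. Some uniquely aligned reads matched no counted feature, which can include reads in introns of genes. Their share of uniquely aligned reads was 17.6% to 18.9% in control, 27.7% to 28.8% in shRRM2 and 23.5% to 24.4% in shRRM2/shp16. This share was highest in shRRM2, where 8 of the host genes described next were lower than in control, and lowest in control. Its part in those results was not tested.

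In cells with shRRM2, 8 of the 10 host genes fell against control and SNHG16 rose. SNHG12 and SNHG1 fell the most, to 55.2% and 56.8% of their control means, and SNHG15, SNHG3, SNHG6, GAS5, SNHG5 and SNHG7 stood at 65.9% to 87.0%. SNHG8 was at 97.7% of control and did not pass the test. In shRRM2/shp16, GAS5, SNHG5, SNHG6, SNHG7 and SNHG15 stood at 104.2% to 116% of control, while SNHG1, SNHG3 and SNHG12 stood between 69.0% and 74.0%. The hairpin groups differed in RRM2 as well as in CDKN2A. For shRRM2/shp16 against shRRM2, the log2 fold change of RRM2 was 1.51 ± 0.04 (adjusted p = 7.92e-34, edgeR). That of CDKN2A was -0.60 ± 0.13 (adjusted p = 7.01e-05). Below, "with shp16" names this comparison of groups, and the part of either gene in it was not tested. The summed level of the 10 genes was 626 ± 4.26 CPM in control, 541 ± 5.82 in shRRM2 and 600 ± 7.29 in shRRM2/shp16 (SD, n = 3 each), and the 3 libraries of each group lay apart from those of the others. Fewer cells that express a gene and less of its RNA per cell cannot be told apart in these bulk libraries.

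For shRRM2 against control, 9 of 10 host genes passed an adjusted p of 0.05 (edgeR quasi-likelihood test, Benjamini-Hochberg adjustment over 16561 genes), where 60.9% of all tested genes did. The 8 lower host genes stand beside 31.8% of tested genes called lower, and the 1 higher beside 29.0% called higher. The median log2 fold change was -0.38 for the host genes and 0.00 for all tested genes. For shRRM2/shp16 against shRRM2, 8 of 10 were called, beside 61.1% of tested genes. Of these 7 were higher, beside 31.9%, and SNHG16 was lower, beside 29.1%. The medians were 0.35 and 0.01. For shRRM2/shp16 against control, 7 of 10 were called, beside 62.4%, with 3 higher and 4 lower, beside 30.0% and 32.4%. The medians were 0.03 and 0.01. Among 8392 tested genes in the abundance range of the host genes, 45.0% were lower in shRRM2 than in control and 40.6% were higher in shRRM2/shp16 than in shRRM2. For shRRM2/shp16 against control, 32.5% of them were higher and 43.9% lower. In either direction 72.7%, 73.3% and 76.4% of them were called in the 3 comparisons, in the order above, beside 9, 8 and 7 of 10 host genes. The 3 comparisons share libraries, so they are not independent of each other.

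**Figure D2:**
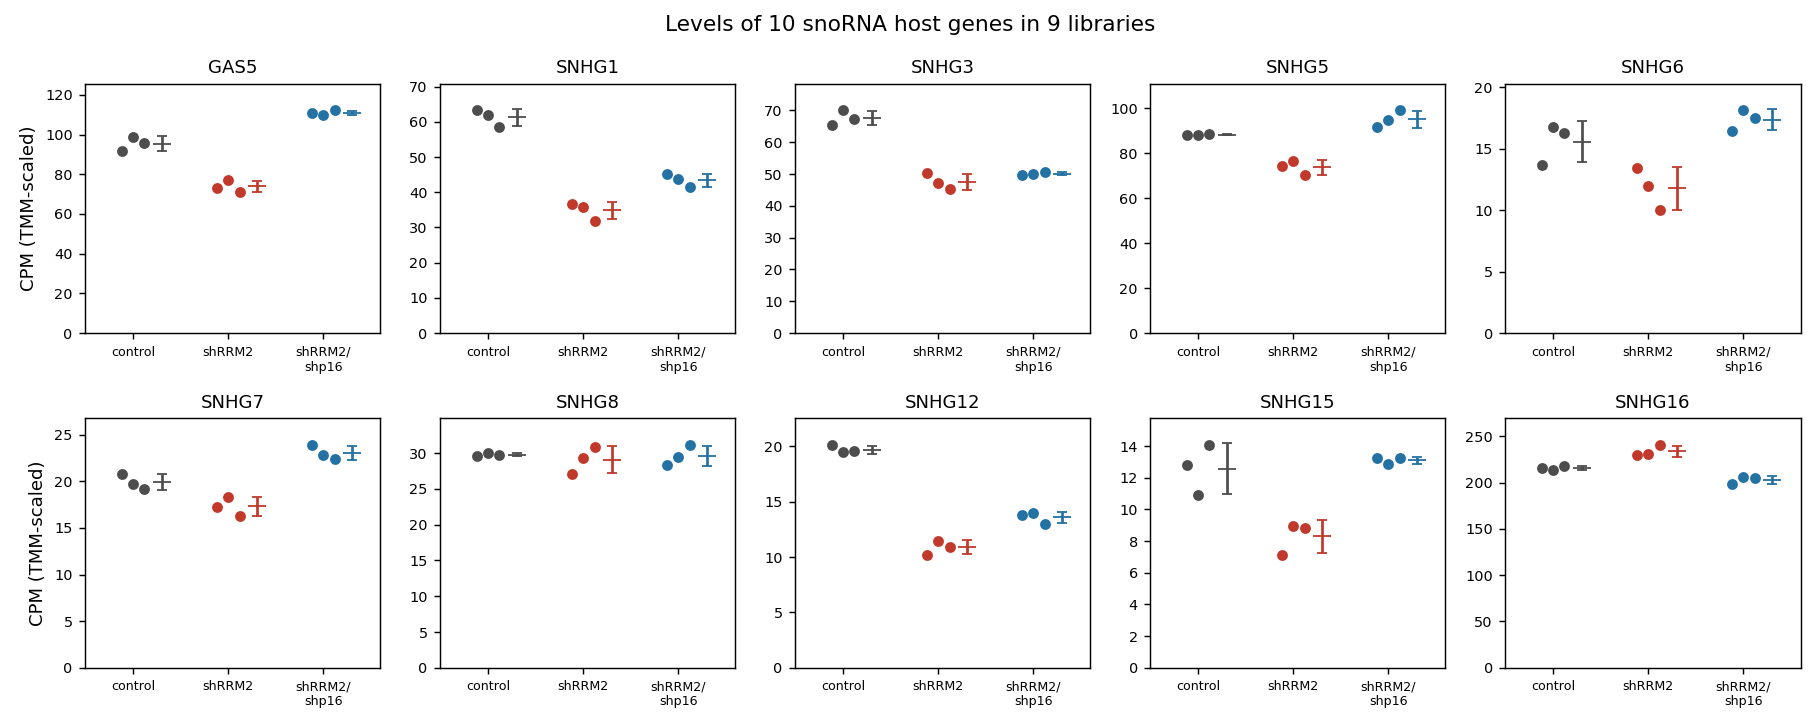
Level of each host gene in CPM (TMM-scaled library sizes, linear axes from 0) in the 3 libraries of each group (points) with mean and SD (bars). All panels but that of SNHG8 show separate control and shRRM2 points, GAS5 for example at 91.5 to 98.9 and 71.2 to 77.1. The SNHG8 points of all groups lie between 27.1 and 31.1. Such separation was not counted over all tested genes, of which 60.9% passed the test in this comparison.

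**Figure D3:**
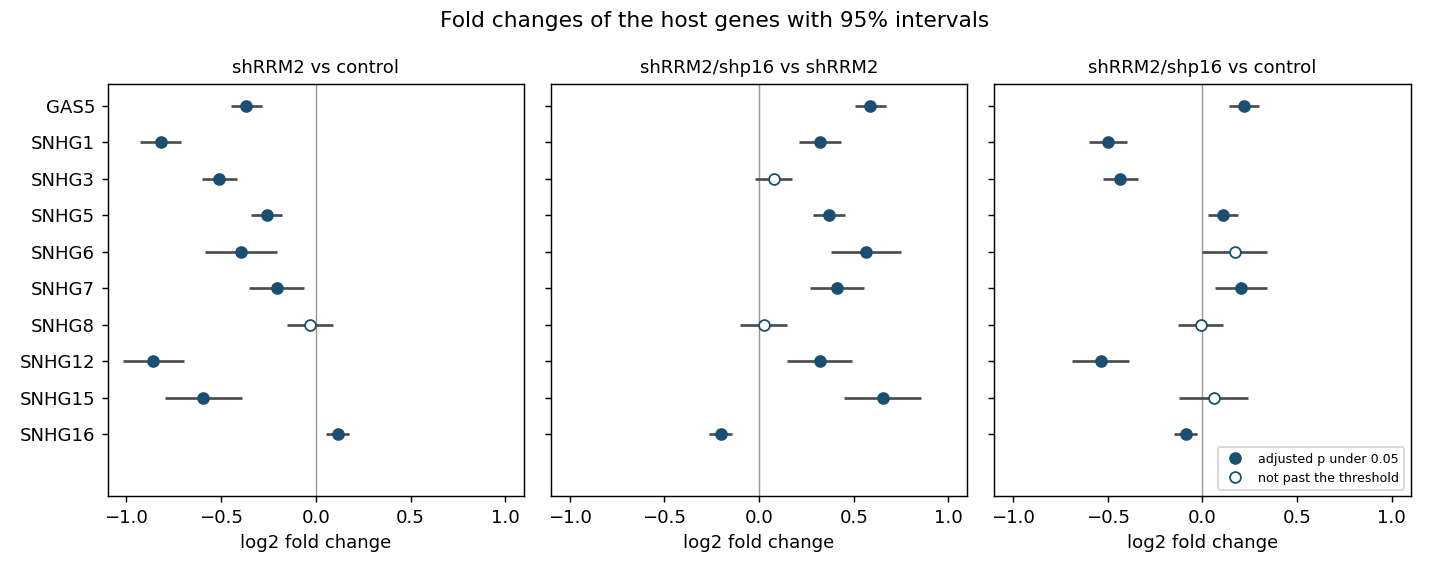
Log2 fold change of each host gene with its 95% interval in the 3 comparisons (edgeR). Filled points passed an adjusted p of 0.05. Most points lie left of 0 in shRRM2 against control and right of 0 in shRRM2/shp16 against shRRM2, with SNHG16 on the opposite side in each.

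GAS5 (ENSG00000234741, chr1:173863900-173868882, minus strand, GRCh38), whose spliced RNA is known to build up when cell growth stops, had 91.5, 98.9 and 95.9 CPM in control libraries a, b and c. It had 73.3, 77.1 and 71.2 in shRRM2. It had 111, 110.0 and 112 in shRRM2/shp16. Every shRRM2 library was below every control library, and every shRRM2/shp16 library was above both groups. The mean fell from 95.4 ± 3.70 to 73.9 ± 2.96 (SD, n = 3), a log2 fold change of -0.37 ± 0.04 (SE) with an adjusted p of 1.98e-10 (edgeR). It rose to 111 ± 1.14 with shp16, by 0.59 ± 0.04 against shRRM2 (adjusted p = 7.58e-17) and by 0.22 ± 0.04 against control (adjusted p = 2.89e-06).

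SNHG1 (ENSG00000255717, chr11:62851988-62855914, minus strand), host of a cluster of box C/D snoRNAs, had 63.3, 61.9 and 58.6 CPM in control. It had 36.7, 35.8 and 32.0 in shRRM2 and 45.2, 43.7 and 41.5 in shRRM2/shp16. The 3 groups did not overlap, and the double-hairpin libraries lay between the others. The log2 fold change was -0.82 ± 0.05 (SE) for shRRM2 against control, from 61.3 ± 2.39 to 34.8 ± 2.52 CPM (SD, n = 3; adjusted p = 1.30e-17, edgeR). It was 0.32 ± 0.06 for shRRM2/shp16, at 43.5 ± 1.85 CPM, against shRRM2 (adjusted p = 2.75e-06) and -0.50 ± 0.05 against control (adjusted p = 7.40e-12).

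SNHG5 (ENSG00000203875, chr6:85660950-85678748, minus strand), host of the SNORD50 pair, had 88.0, 88.3 and 88.5 CPM in control. It had 74.4, 76.4 and 70.2 in shRRM2 and 91.6, 94.7 and 99.1 in shRRM2/shp16. All shRRM2 libraries were lowest and all shRRM2/shp16 libraries highest, without overlap. The fall from 88.2 ± 0.237 to 73.7 ± 3.16 CPM (SD, n = 3) was -0.26 ± 0.04 on the log2 scale (adjusted p = 7.32e-07, edgeR), and the rise from there to 95.1 ± 3.78 was 0.37 ± 0.04 (adjusted p = 1.90e-10). The difference from control with both hairpins was 0.11 ± 0.04 (adjusted p = 0.0162). That last call was lost without shRRM2/shp16 replicate c (adjusted p = 0.0974), with DESeq2 (0.106) and with no filter on low counts (0.111), over a range of 1.33e-05 to 0.111 in 16 alternatives.

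SNHG6 (ENSG00000245910, chr8:66921684-66926398, minus strand), host of SNORD87, had 13.7, 16.8 and 16.3 CPM in control. It had 13.5, 11.9 and 9.98 in shRRM2 and 16.5, 18.1 and 17.5 in shRRM2/shp16. Control a was only slightly above the highest shRRM2 library, and the control and double-hairpin ranges overlapped. The log2 fold change was -0.39 ± 0.09 (SE) for shRRM2 against control, from 15.6 ± 1.64 to 11.8 ± 1.74 CPM (SD, n = 3; adjusted p = 0.000367, edgeR). It was 0.56 ± 0.09 for shRRM2/shp16 against shRRM2, up to 17.4 ± 0.832 CPM (adjusted p = 9.89e-07). Against control, shRRM2/shp16 differed by 0.17 ± 0.09 (adjusted p = 0.0779), which passed the threshold without control replicate b (0.0266), without shRRM2 replicate c (0.0494), with at least 10 counts in every library (0.0444), in a fit of the 6 libraries compared (0.0387) and with library totals in place of TMM factors (0.00567). The 16 alternatives ranged from 0.00567 to 0.472.

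SNHG16 (ENSG00000163597, chr17:76557766-76565348, plus strand), host of SNORD1A, SNORD1B and SNORD1C and the most abundant of the 10, had 216, 214 and 217 CPM in control. It had 230.0, 231 and 240.4 in shRRM2 and 198, 206 and 205 in shRRM2/shp16. The groups did not overlap, and their order was the reverse of that of GAS5. The annotated starts shown for the 2 genes begin with the same 11 bases, and any bearing of these starts on the levels was not tested. The mean of SNHG16 rose from 216 ± 1.86 to 234 ± 5.76 CPM in shRRM2 (SD, n = 3), by 0.12 ± 0.03 on the log2 scale (adjusted p = 0.00107, edgeR). This call was lost with no filter on low counts (0.08, adjusted p = 0.0636), in a range of 1.56e-05 to 0.0636 over 16 alternatives. With shp16 the mean fell by 0.20 ± 0.03 to 203 ± 4.26 CPM (adjusted p = 2.04e-07). The difference of -0.09 ± 0.03 from control (adjusted p = 0.0122) was lost without shRRM2/shp16 replicate a (0.115) and with at least 10 counts in every library (0.0531), and it turned to 0.02 with library totals in place of TMM factors (adjusted p = 0.634), in a range of 0.00280 to 0.634.

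SNHG3 (ENSG00000242125, chr1:28505980-28510892, plus strand), host of SNORA73A and SNORA73B, had 65.5, 70.0 and 67.4 CPM in control. It had 50.2, 47.1 and 45.3 in shRRM2 and 49.7, 50.0 and 50.5 in shRRM2/shp16. Control stood above the other libraries, and the 2 hairpin groups overlapped. The fall from 67.7 ± 2.26 to 47.5 ± 2.50 CPM (SD, n = 3) was -0.51 ± 0.05 on the log2 scale (adjusted p = 9.38e-13, edgeR). The shRRM2/shp16 mean was 50.1 ± 0.413 CPM, -0.43 ± 0.05 against control (adjusted p = 3.15e-11). Against shRRM2 the difference was 0.08, with a 95% interval of -0.02 to 0.18 (adjusted p = 0.167), and with library totals it was 0.14 (adjusted p = 0.0150), over a range of 0.0150 to 0.505 in 16 alternatives.

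SNHG7 (ENSG00000233016, chr9:136721366-136728184, minus strand), host of SNORA17A and SNORA17B, had 20.8, 19.7 and 19.1 CPM in control. It had 17.3, 18.3 and 16.3 in shRRM2 and 23.9, 22.9 and 22.4 in shRRM2/shp16. The groups did not overlap, with shRRM2 lowest and the double-hairpin group highest. The log2 fold change of -0.21 ± 0.07 for shRRM2 against control, from 19.9 ± 0.863 to 17.3 ± 1.02 CPM (SD, n = 3), had an adjusted p of 0.0128 (edgeR). It was lost without control replicate a (0.0818), without shRRM2 replicate c (0.0899), with DESeq2 (0.0542) and with library totals (0.0501), over a range of 0.00557 to 0.0899. The rise with shp16, to 23.0 ± 0.772 CPM, was 0.41 ± 0.07 (adjusted p = 2.61e-06). Against control it was 0.21 ± 0.07 (adjusted p = 0.00739), lost with DESeq2 (0.0756), over a range of 0.000106 to 0.0756 in 16 alternatives.

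SNHG8 (ENSG00000269893, chr4:118278709-118279823, plus strand), host of SNORA24, had 29.6, 30.0 and 29.7 CPM in control. It had 27.1, 29.4 and 30.8 in shRRM2 and 28.3, 29.5 and 31.1 in shRRM2/shp16. All 3 groups overlapped. The log2 differences were -0.03 for shRRM2 against control (95% interval -0.15 to 0.09, adjusted p = 0.679, edgeR), 0.02 for shRRM2/shp16 against shRRM2 (-0.10 to 0.15, adjusted p = 0.751) and -0.01 against control (-0.13 to 0.11, adjusted p = 0.930). These intervals leave room for small changes of either sign.

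SNHG15 (ENSG00000232956, chr7:44983023-44986961, minus strand), host of SNORA9, had 12.8, 10.9 and 14.1 CPM in control. It had 7.11, 8.94 and 8.84 in shRRM2 and 13.3, 12.8 and 13.2 in shRRM2/shp16. The shRRM2 libraries were lowest, and the control range enclosed the double-hairpin range. The mean fell from 12.6 ± 1.59 to 8.30 ± 1.03 CPM (SD, n = 3), by 0.59 ± 0.10 on the log2 scale (adjusted p = 2.54e-06, edgeR), and rose by 0.65 ± 0.10 with shp16 to 13.1 ± 0.228 (adjusted p = 3.35e-07). With both hairpins it differed from control by 0.06, with a 95% interval of -0.12 to 0.24 (adjusted p = 0.585).

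SNHG12 (ENSG00000197989, chr1:28578538-28583132, minus strand), which hosts snoRNAs of both classes, had 20.1, 19.5 and 19.5 CPM in control. It had 10.2, 11.5 and 10.9 in shRRM2 and 13.8, 13.9 and 13.0 in shRRM2/shp16. The groups did not overlap and stood in the same order as those of SNHG1. The log2 fold change was -0.86 ± 0.08 for shRRM2 against control, from 19.7 ± 0.359 to 10.9 ± 0.630 CPM (SD, n = 3; adjusted p = 1.35e-12, edgeR). It was 0.32 ± 0.09 for shRRM2/shp16, at 13.6 ± 0.512 CPM, against shRRM2 (adjusted p = 0.00116) and -0.54 ± 0.07 against control (adjusted p = 3.12e-08).

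Per length of exon, the order of the genes differed from that of their counts. RPKM (reads scaled to gene length and library total) was rescaled from the authors' columns, which hold values per base. In RPKM the control means were 38.8 ± 0.278 for SNHG16, 31.1 ± 0.410 for SNHG8, 30.5 ± 0.234 for SNHG5, 25.4 ± 1.13 for GAS5, 16.0 ± 0.627 for SNHG3, 15.7 ± 0.590 for SNHG1, 12.1 ± 1.34 for SNHG6, 5.63 ± 0.0729 for SNHG12, 4.42 ± 0.175 for SNHG7 and 3.33 ± 0.411 for SNHG15 (SD, n = 3). SNHG3 and SNHG1 differed by less than the SD of either. SNHG8, with 923 bases of exon, was the shortest of the genes, and SNHG16, with 5362, the longest. The lengths count every annotated exon, and the level moves with them: with the GENCODE 29 exon union, SNHG12 would stand at 4.46. In the shRRM2 group, where 2 of the 3 deposited columns match their counts, the RPKM was 42.8 ± 0.0523 for SNHG16, 20.6 ± 0.643 for GAS5, 9.61 ± 0.202 for SNHG1 and 2.19 ± 0.345 for SNHG15 (SD, n = 2). In shRRM2/shp16 these 4 genes were at 39.3 ± 0.886, 31.7 ± 0.322, 12.0 ± 0.499 and 3.73 ± 0.0603 (SD, n = 3), and SNHG5 at 35.3 ± 1.44 stood above SNHG8 at 33.3 ± 1.62 with overlapping ranges of mean and SD.

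The authors' deposited table compares shRRM2/shp16 with shRRM2 in FPKM (fragments scaled to transcript length and library total). It marks 5 of the 10 host genes as significant, beside 7.77% of the 64235 genes in the authors' deposited table. That total holds genes with few or no counts, whereas all 10 host genes were among the 16561 that passed the count filter. The share marked among those 16561 was not computed, so 7.77% is a low yardstick. These are GAS5, SNHG5, SNHG6, SNHG7 and SNHG15, with log2 fold changes of 0.67, 0.34, 0.62, 0.40 and 0.91 and a q of 0.000444 each in the authors' deposited table. The deposited table of the authors gives SNHG1 0.21 (q = 0.148), SNHG12 0.32 (q = 0.139) and SNHG16 -0.08 (q = 0.795), which the count test called. SNHG3 and SNHG8 were called by neither, with a q of 0.953 and 0.282 in the authors' deposited table. Levels there rank differently, with SNHG5 highest in shRRM2 at 443 FPKM, then GAS5 at 148, SNHG16 at 128 and SNHG8 at 119.7, as the authors' deposited table gives them.

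The snoRNAs themselves were mostly not measurable. They were looked up in GENCODE 29, which places 0 snoRNA genes within GAS5, so the snoRNAs that RefSeq gives for GAS5 were not examined. Within the other spans, 22 snoRNA genes are annotated on the same strand and listed among the counted identifiers. Of these, 18 lie wholly inside an annotated exon of their host, and all 18 had 0 counts in every library. The other 4 had counts: SNORA73B with 4077 in all 9 libraries together, SNORD99 with 65, SNORD30 with 34 and SNORD1B with 13. A read that could belong to a snoRNA or to its host's exon is ambiguous to a gene counter, so the 0 counts say nothing about the snoRNAs. The sequences of the 4 counted ones are those of GENCODE 29 transcripts (GRCh38). In SNORD99 only a D box is marked, and in SNORA73B only an ACA box and no H box. Exact matches to a C box, a D box or an ACA box near the ends are in capitals, to show elements of each class:

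SNORA73B: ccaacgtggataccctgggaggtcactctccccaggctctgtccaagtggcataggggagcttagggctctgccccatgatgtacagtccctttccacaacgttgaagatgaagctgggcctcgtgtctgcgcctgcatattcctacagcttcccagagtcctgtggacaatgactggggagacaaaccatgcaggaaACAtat
SNORD30: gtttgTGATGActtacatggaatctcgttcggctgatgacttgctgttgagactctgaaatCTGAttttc
SNORD99: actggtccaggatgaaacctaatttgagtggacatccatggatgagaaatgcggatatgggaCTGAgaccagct
SNORD1B: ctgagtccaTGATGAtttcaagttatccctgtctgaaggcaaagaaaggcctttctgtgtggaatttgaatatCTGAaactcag

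SNORA73B (ENSG00000200087, chr1:28508559-28508762, plus strand), an H/ACA snoRNA in an SNHG3 intron, was the only hosted snoRNA with enough counts to be tested. It had 28.5, 23.3 and 24.6 CPM in control, 18.5, 21.2 and 18.2 in shRRM2, and 31.3, 23.1 and 28.8 in shRRM2/shp16. All shRRM2 libraries were below all others, and control and shRRM2/shp16 overlapped. It fell by 0.41 ± 0.09 on the log2 scale in shRRM2 (25.5 ± 2.70 to 19.3 ± 1.61 CPM; SD, n = 3; adjusted p = 6.71e-05, edgeR) and rose by 0.51 ± 0.08 with shp16 to 27.7 ± 4.21 (adjusted p = 1.19e-06). Its host SNHG3 differed by 0.08 in the latter comparison, and the difference between the 2 genes was not tested. SNORA73A and SNORA73B are close copies, so reads that align to both are missing from the count. Reads from unspliced RNA of the host, or of an overlapping gene, may be among those counted for SNORA73B. RCC1, a protein-coding gene that overlaps SNHG3 on the same strand, fell by 1.08 ± 0.05 in shRRM2 (adjusted p = 1.30e-21) and rose by 0.62 ± 0.06 with shp16 (adjusted p = 4.92e-13). Since both lie on the same strand, no strand setting could tell their reads apart where they overlap.

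Of the 10 genes, 3 start within 1 kb of a gene on the opposite strand: GAS5 beside ZBTB37, SNHG1 beside SLC3A2, and SNHG16 beside RP11-666A8.8. SLC3A2, the heavy chain of amino acid transporters, starts 188 bases from SNHG1 and had 124, 116 and 127 CPM in control, 80.9, 80.5 and 77.2 in shRRM2, and 119, 110.0 and 113 in shRRM2/shp16. Its log2 fold changes were -0.62 ± 0.04 (adjusted p = 1.56e-17), 0.52 ± 0.04 (adjusted p = 5.90e-15) and, for both hairpins against control, -0.10 ± 0.04 (adjusted p = 0.0160; edgeR). Both genes of this pair thus fell with shRRM2 and rose with shp16, SNHG1 reaching 70.9% of its control mean. Because both genes of the pair changed, the stretch from the SLC3A2 start to the start RefSeq gives for SNHG1 is shown, on the SNHG1 strand, from RefSeq (GRCh38.p14, chr11:62855866-62856102, minus strand), with the first 20 transcribed bases of SNHG1 in capitals:

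SNHG1 to SLC3A2: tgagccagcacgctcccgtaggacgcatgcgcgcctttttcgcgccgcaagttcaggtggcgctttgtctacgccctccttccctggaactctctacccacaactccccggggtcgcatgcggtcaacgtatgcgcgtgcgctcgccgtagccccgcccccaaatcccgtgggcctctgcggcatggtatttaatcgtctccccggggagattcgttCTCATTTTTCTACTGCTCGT

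ZBTB37, a zinc finger gene whose start lies 800 bases from that of GAS5 and inside its span, had 25.5, 26.4 and 25.0 CPM in control, 29.2, 31.0 and 29.5 in shRRM2, and 42.3, 43.2 and 44.5 in shRRM2/shp16. It rose by 0.22 ± 0.06 with shRRM2 (adjusted p = 0.00120, edgeR), where GAS5 fell, and by a further 0.53 ± 0.05 with shp16 (adjusted p = 1.41e-11), where GAS5 rose too. RP11-666A8.8 had at most 5 counts in any library and was not tested. TRNAU1AP, which overlaps SNHG12 on the opposite strand, fell by 0.45 ± 0.08 with shRRM2 (adjusted p = 2.01e-06) and differed by -0.07 ± 0.08 with shp16 (adjusted p = 0.470). The strand setting of the authors' counting is not given in the sources used here, so reads of GAS5 and ZBTB37, or of SNHG12 and TRNAU1AP, may not be fully told apart.

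Other snoRNA hosts were read from the same fit. Of 12 tested further non-coding hosts, shRRM2 gave 3 higher and 3 lower than control, and their median on the log2 scale was -0.10 beside -0.38 for the 10 genes described above. MEG8, from an imprinted snoRNA cluster, rose from 14.6 ± 0.565 to 29.7 ± 0.602 CPM (1.02 ± 0.07, adjusted p = 8.05e-17) and fell with shp16 by 1.45 ± 0.07 (adjusted p = 2.13e-21). SNHG18 rose by 0.74 ± 0.08 and then fell by 0.85 ± 0.08, while SNHG17 fell by 0.38 ± 0.08 with shRRM2. DANCR rose by 0.74 ± 0.07 and EPB41L4A-AS1 by 0.71 ± 0.09 with shp16 against shRRM2, where 5 of the 12 were higher and 2 lower. Of 30 tested protein-coding hosts, 23 were lower in shRRM2 and 3 higher (median -0.22), among them CWF19L1 at -0.79 ± 0.07, NOP56 at -0.69 ± 0.04 and DKC1 at -0.68 ± 0.05. With shp16 against shRRM2, 13 were higher and 6 lower (median 0.07).

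Ribosomal protein genes, which share the TOP start, fell nearly as a whole in shRRM2: 76 of 77 tested were lower and 0 higher, with a median log2 fold change of -0.34. RPL17, at 0.16 ± 0.13 (adjusted p = 0.287, edgeR), was the exception. RPLP0, RPSA and RPS12 fell most, by 0.64 ± 0.03, 0.62 ± 0.03 and 0.61 ± 0.04. With shp16, 59 of 77 were higher than in shRRM2 and 0 lower (median 0.16), led by RPS12 at 0.75 ± 0.04 and RPS27 at 0.54 ± 0.03. Against control, 58 were lower in shRRM2/shp16 and 4 were higher (median -0.18), where library totals in place of TMM factors gave 38 lower and 12 higher. That scaling moves the median of all tested genes in this comparison by 0.10. Of 20 other TOP mRNAs, 14 were lower and 0 higher in shRRM2 (median -0.14; 2 higher with library totals), with HNRNPA1 at -0.93 ± 0.03, and 7 were higher and 5 lower with shp16 against shRRM2 (median 0.02), or 11 and 3 with library totals.

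Of 20 tested proteins that assemble and carry snoRNAs, 15 were lower and 0 higher in shRRM2 than in control (median -0.34). FBL, the methyltransferase of box C/D particles, went from 97.1 ± 4.15 to 56.1 ± 2.31 CPM (-0.79 ± 0.04, adjusted p = 4.81e-20, edgeR), NOP56, a C/D core protein, by -0.69 ± 0.04, and RUVBL1, an assembly factor, by -0.69 ± 0.05. With shp16, 10 were higher than in shRRM2 and 2 lower (median 0.17), RUVBL1 by 0.33 ± 0.05 and NOLC1 by 0.30 ± 0.04, where DESeq2 called 6 higher and 2 lower. Against control, 14 of 20 were lower in shRRM2/shp16 and RPAP3 was higher (0.15 ± 0.06, median of the list -0.27), a call that DESeq2 did not make. Of 18 factors of NMD, the pathway that degrades several host RNAs, 14 were lower and 0 higher in shRRM2 (median -0.28), DHX34 by -0.74 ± 0.06 and EIF4A3 by -0.56 ± 0.04. With shp16, 10 were higher and 2 lower than in shRRM2 (median 0.16), DHX34 by 0.47 ± 0.07, and SMG5 at -0.26 ± 0.04 among the lower.

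**Figure D4:**
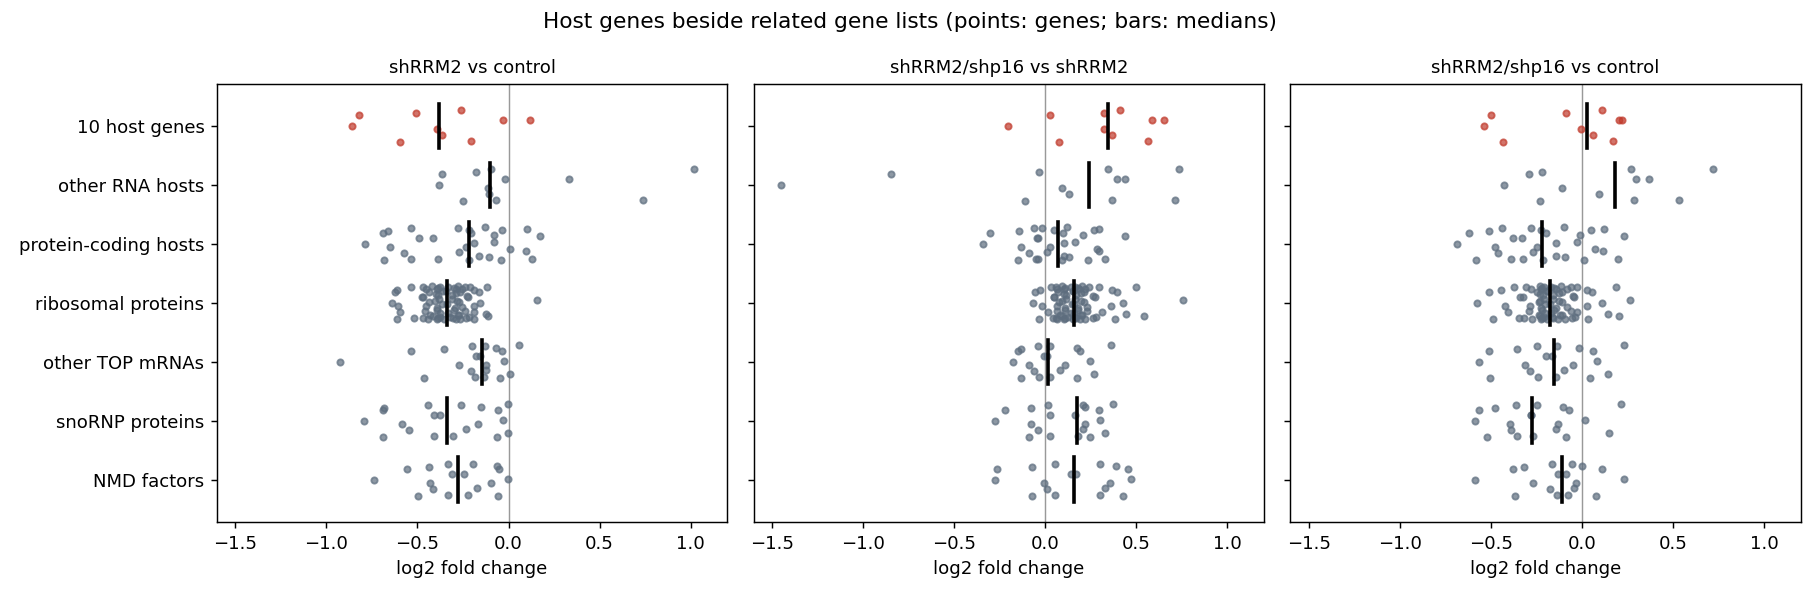
Log2 fold changes of the 10 host genes (red) beside related gene lists (grey) in the 3 comparisons. Each point is a tested gene, and the bars are medians, which for the host genes are -0.38, 0.35 and 0.03 and for the ribosomal proteins -0.34, 0.16 and -0.18.

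Likeness of profiles was measured as the root mean square distance between centred log2 CPM over the 9 libraries, among 11402 genes of sufficient level. It is a description, and all genes share the libraries. SNHG1 and SNHG12 were each other's nearest host gene, at 0.077, and ranked 17 and 27 of 11401 genes in each other's order. SNHG5 and SNHG7 were also each other's nearest host gene, at 0.073, with ranks of 168 and 101 in each other's order. SNHG8 and SNHG16 were too, at 0.104, but with ranks of only 1087 and 1007. GAS5 was nearest to SNHG5 among the host genes (0.096). Over all genes the nearest to GAS5 was RPS27 (0.043), to SNHG1 TTLL12 (0.041), to SNHG12 ACTL6A (0.048), to SNHG3 DEGS1 (0.037) and to SNHG16 SPG7 (0.020). The mean profile of the 10 host genes lay nearest to RPS16 (0.025), CPSF3 (0.027), RPL10A (0.027), CREBBP (0.029) and MAPK8IP1 (0.031). SNHG5, itself part of that mean, was the host gene closest to it, at rank 384 of 11402 genes.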

How the data were processed

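RNA of 9 libraries was analysed, with groups and replicate letters taken from the labels. The authors deposited, library by library, unnormalised counts of reads for each Ensembl gene, in the layout of HTSeq. Per the submitters' processing notes, the build was GRCh38, and TopHat2 2.0.9, Cufflinks 2.0.2 and Cuffdiff were used, with no roles given. The annotation release and strand setting are not given in the sources used here. The authors also deposited log2 values per library under RPKM headers. Calculating back from the counts gave a log2(x + 1) scale with x per base of exon. These x values were rescaled here to RPKM, which is per kilobase. Per the file headers, group FPKM of the hairpin groups was deposited too, with log2 fold change, p-value and q-value. A test score in the authors' deposited table was not used. The RPKM column of shRRM2 replicate c gave the same gene length as its counts for 5.85% of 9892 genes (within 1%), against 100% in the other 8 columns, and was left out. The number of columns matching no sample was 0.

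Tally lines naming no gene were left out of library sizes. Counts were filtered with filterByExpr, which kept 16561 genes with 99.8% of counts, scaled with TMM factors and tested with edgeR 4.0.16 in R 4.3.3 (glmQLFit, glmQLFTest, 9 libraries, 6 residual degrees of freedom, two-sided, Benjamini-Hochberg over all tested genes, threshold 0.05). The fit was tried on simulated shRRM2 and control counts in which 200 genes changed. It recovered 182 of them and called 12 unchanged genes, of 15516 tested. Far fewer genes changed there than were called in these data, so that trial does not check the scaling. Starts, exons and positions came from GENCODE 29, promoter sequence and snoRNA names from RefSeq. RefSeq windows matched 8 of the 10 genes, all but SNHG6 and SNHG15. The genes and lists were chosen with earlier results of these data known. Named beside them were up to 3 called genes per list and direction whose mean log2 CPM reached 2, opposite-strand genes starting within 1 kb, hosted snoRNAs with at least 10 counts, and up to 5 nearest profiles. Alternatives were RLE factors, DESeq2 1.42.0, other filters, the 6 libraries of each comparison, a replicate block, each library left out and, chosen after seeing the data, library totals.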

Additional observations from a re-analysis of the deposited data

How the results depend on the processing

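Of 480 checks of a host gene's fold change under 16 alternatives, 450 kept their direction and side of the threshold, 11 lost a call, 6 gained one and 13 changed sign. 12 of the sign changes were of values that had not passed the test. SNHG8 changed sign for shRRM2 against control with at least 10 counts in every library (0.000618), with library totals (0.0131) and without shRRM2 replicate a (leave-one-out range -0.0676 to 0.0202), and for shRRM2/shp16 against shRRM2 without shRRM2 replicate a (-0.0211) or shRRM2/shp16 replicate c (-0.00691), in a range up to 0.0673. For shRRM2/shp16 against control it changed with at least 10 counts (0.0149), in the fit of 6 libraries (0.00568), with library totals (0.0977) and in 3 fits leaving a library out (0.00498, 0.00668 and 0.0314, in a range of -0.0346 to 0.0314). SNHG15 changed without control replicate b (range -0.0199 to 0.129), and SNHG16 with library totals (0.0171), both for shRRM2/shp16 against control. The count of host genes higher in shRRM2 than control was 0 with no filter on low counts and, in shRRM2/shp16 against control, 1 with DESeq2. Leaving out 1 library at a time gave 8 to 9 calls for shRRM2 against control (7 to 8 lower, 1 higher), 8 for shRRM2/shp16 against shRRM2 (7 higher, 1 lower) and 6 to 8 for shRRM2/shp16 against control (2 to 4 higher, 3 to 4 lower). Deviations of same-letter libraries correlated at -0.020 to 0.049 and those of other pairs at -0.048 to 0.036. No shared deviation by letter was seen, which cannot exclude that same-letter libraries were prepared together. The replicate block gave 9, 8 and 7 calls in these 3 comparisons, the numbers found without it. SNHG15, SNHG6 and SNHG12, with the fewest counts, had the widest standard errors. The cause of these changes was not tested.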

Other observations

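Known NMD targets outside the host genes split with shp16. Of 7 tested, 5 were lower and 0 higher in shRRM2 than in control, ATF4 by -0.42 ± 0.04 and UPP1 by -0.42 ± 0.08. Against shRRM2, shRRM2/shp16 libraries had higher ATF4 (119 ± 2.56 to 188 ± 8.78 CPM, 0.66 ± 0.04, adjusted p = 1.71e-20, edgeR), ATF3 (0.60 ± 0.08) and DDIT3 (0.55 ± 0.09), which are stress-response transcription factors. GADD45A fell by 0.85 ± 0.06 and GADD45B by 0.84 ± 0.07, both growth arrest genes.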
